A study of Arabidopsis thaliana with 69 samples.

Results

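The comparison set cultures of an empty vector line of Arabidopsis thaliana harvested 24 h after an addition to the medium against those harvested 9 h after it. The members were the 12 arrays that the labels assign to that line at these times, of 69 arrays in the series, and the label alone chose them. Arrays were Affymetrix ATH1 gene expression arrays, which read each transcript with a set of short probes called a probe set. Of the 12 arrays, 6 were of cultures at 24 h (3 given dexamethasone, DEX, and 3 given its solvent DMSO) and 6 of cultures at 9 h (again 3 with DEX and 3 with DMSO). All cultures were of ecotype Col-0 and carried VP16-GR, the activation domain of VP16 joined to the part of the glucocorticoid receptor (GR) that binds the hormone, without the xylem transcription factor VND7. DEX was used at 10 µM and brings a GR fusion into the nucleus. The construct described in the labels stands behind the constitutive 35S promoter. Seedlings were raised from T3 seeds in shaken liquid medium with sucrose, in darkness for 6 days before the addition. The labels call the tissue hypocotyl, whereas the harvest they describe collected the culture on filter paper. They do not say how many transformed lines the empty vector cultures came from, and replicates are called biological without saying more. Time since the addition, age of the culture and hour of the day at harvest changed together in this design and cannot be told apart. The other arrays compared below were 6 of the same line at 12 h and 6 of the line carrying VND7-VP16-GR, grown without DEX, at 24 h and 9 h. Some values of the VND7 line at other times are given beside them.

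As background, photosystem I and photosystem II are the pigment-protein complexes of the chloroplast's thylakoid membrane that turn light into chemical energy. Their subunits come partly from genes in the nucleus and partly from genes in the chloroplast's own DNA, and the Calvin cycle uses their products to fix carbon dioxide. Dark-grown seedlings hold etioplasts, plastids that have not yet built these membranes. The plant circadian clock gives many transcripts a daily rhythm, and GIGANTEA (GI) is one of its evening-phased components.

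Between 24 h and 9 h the empty vector cultures gained transcripts of nuclear photosynthesis genes and lost transcripts of a smaller set. Of the genes with a symbol and no overlap between times, COR27, CCL, PDC2 and GI fell most, and several loci without a symbol fell as far. PSAN and PSAE-1, subunits of photosystem I, were 4.04-fold and 3.69-fold higher at 24 h. GI was 4.0-fold lower at 24 h and COR27 at least 16.6-fold lower, its 24 h signal being close to the lowest value of the arrays. Calls required a Benjamini-Hochberg adjusted p below 0.05 in limma together with a log2 change of 1 or more in size, that is 2-fold. By that rule 276 of 22746 probe sets were called, or 1.21%, of which 202 (0.888%) rose and 74 (0.325%) fell. The adjusted p alone was under 0.05 for 2516 probe sets (11.1%), and these leaned the other way, with 1082 higher (4.76%) and 1434 lower (6.3%) at 24 h. The median change over all probe sets tested was 0. With the spread taken from all 69 arrays, 88 probe sets were called, 46 up and 42 down. Those 69 include the VND7 line given DEX and the VND7 arrays described below as standing apart. With the spread of the 18 empty vector arrays 271 were called, 263 of them among the 276. Of the 276 called probe sets, 36 that rose and 13 that fell changed by at least 2 on the log2 scale.

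Values are log2 signals deposited after GCRMA (a background correction and summary of probes), whose lowest value, 2.14, is called the floor here. A group counts as at the floor when its mean lies less than 0.3 above it. Of the 202 probe sets that rose, 9 were at the floor at 9 h, and of the 74 that fell, 2 were at the floor at 24 h. All 6 arrays at 24 h lay above all 6 at 9 h in 165 of the 202, and all lay below them in 55 of the 74. Over all probe sets tested, 542 (2.38%) had arrays apart in the upward direction and 683 (3%) in the downward one, 1225 in all (5.39%). Many of the called probe sets cannot be named: 79 of those that rose and 35 of those that fell carry exactly 1 gene, and 158 were used without a gene name. The highest points in the plot of change against signal, up to 6.34 on the log2 scale, are among the unnamed ones.

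**Figure D1:**
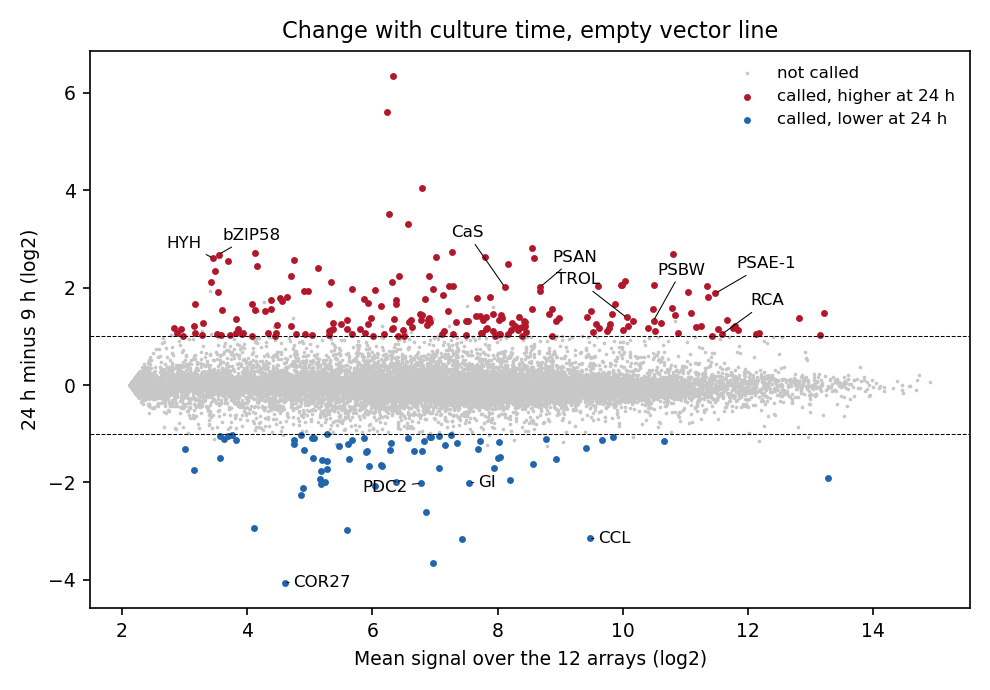
The change between 24 h and 9 h in the empty vector line (24 h minus 9 h, log2) is plotted against the mean log2 signal over the 12 arrays, with one point per probe set and dashed lines at a change of 1 either way. The 202 red points rose and the 74 blue points fell by the call rule, grey points were not called, and labelled genes are those described in the text.

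The 12 arrays separated by time first and by treatment second. Principal component 1, with 39.5% of the variance over the 12 arrays, put all 24 h arrays on one side and all 9 h arrays on the other. Component 2 held 14.3% and divided DEX from DMSO arrays. Each of the 12 arrays had as its nearest array one of the same time and treatment, and no pair held identical values. Array medians ran from 5.50 to 5.58. A measure of RNA quality, the 3' minus 5' log2 signal of GAPDH control probe sets, was 0.85 ± 0.13 at 24 h and 1.13 ± 0.24 at 9 h, and that of actin was 4.64 ± 0.06 at 24 h and 4.71 ± 0.11 at 9 h (SD, n = 6 each). The part of these differences in the results was not tested.

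**Figure D2:**
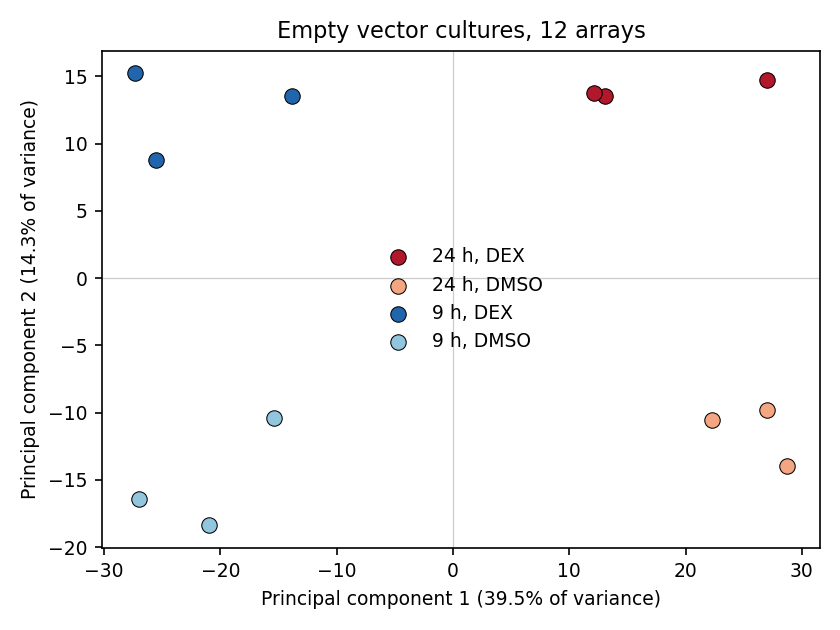
Each point is 1 of the 12 arrays of the empty vector line, placed by its first (39.5% of the variance) and second (14.3%) principal components and coloured by time and treatment. The 6 arrays at 24 h lie on the right and the 6 at 9 h on the left, and the DEX arrays lie above the DMSO arrays at both times.

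Nuclear genes of the photosystems and their antenna rose or were higher in 6 of 7 cases. The list fixed for this group had 7 measured members. Of these 3 were called up, PSAN, PSAE-1 and PSBW, and none down, beside 0.888% up and 0.325% down over all probe sets. Another 3 passed the adjusted p without reaching a log2 change of 1: PSBY, a small subunit of photosystem II, at 0.90 ± 0.12, and the minor antenna genes LHCB4.2 at 0.80 ± 0.11 and LHCB4.1 at 0.67 ± 0.09 (± SE, 24 h minus 9 h on the log2 scale). The 7th, the antenna gene LHCB4.3, differed by -0.11 ± 0.14, with an adjusted p in limma of 0.76. The median change of the 7 was 0.90, beside 0 for all probe sets tested, of which 4.76% passed the adjusted p upward. With the spread taken from all 69 arrays of the series in place of these 12, the same changes had adjusted p-values of 0.868 for PSAN, 0.345 for PSAE-1 and 1 for PSBW, and none of them was called.

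PSAN encodes subunit N of photosystem I, on the lumen side of the complex. Its log2 signals at 24 h were 9.63, 9.22 and 9.29 with DEX and 10.10, 9.92 and 10.00 with DMSO. At 9 h they were 7.56, 6.85 and 7.51 with DEX and 8.21, 8.10 and 7.84 with DMSO. Every array at 24 h was above every array at 9 h by about 1 log2 unit or more, and DMSO arrays were above DEX arrays at both times. The change was 2.02 ± 0.13 (SE), with an adjusted p in limma of 2.5e-05.

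PSAE-1 encodes subunit E of photosystem I, on the stromal side. Its log2 signals at 24 h were 12.63, 12.13 and 11.92 with DEX and 12.70, 12.56 and 12.59 with DMSO. At 9 h they were 10.94, 10.19 and 10.39 with DEX and 10.48, 10.70 and 10.53 with DMSO. The groups did not overlap, and the change was 1.88 ± 0.15 (SE, adjusted p 8.92e-05 in limma). PSBW, subunit W of photosystem II, averaged 11.15 ± 0.28 at 24 h and 9.83 ± 0.23 at 9 h (SD, n = 6 each). It was 2.5-fold higher at 24 h, with an adjusted p of 0.000165 in limma and no overlap between the arrays of the 2 times.

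Other thylakoid proteins among the largest named rises were CaS, TROL and PSB27. CaS, a calcium-sensing protein of the thylakoid membrane, averaged 9.12 ± 0.40 at 24 h and 7.11 ± 0.43 at 9 h (SD, n = 6 each), a 4.02-fold difference with an adjusted p of 0.000875 in limma. TROL, a rhodanese-like thylakoid protein that anchors ferredoxin-NADP reductase, rose by 1.39 ± 0.12 on the log2 scale (SE, adjusted p 0.000104). PSB27, an assembly factor of photosystem II, rose by 1.07 ± 0.09 (SE, adjusted p 8.92e-05). CFM3A, a chloroplast RNA-binding protein with CRM domains that acts in intron splicing, rose by 1.06 ± 0.15 (SE, adjusted p 0.00246). Each of these 4 genes had all 6 arrays at 24 h above all 6 at 9 h, and none was called with the spread of all 69 arrays.

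Of 3 measured Calvin cycle genes, RCA was called up and the others passed the adjusted p alone. Over all probe sets 0.888% were called up and 4.76% passed the adjusted p upward. RCA, Rubisco activase, which keeps the carbon-fixing enzyme Rubisco active, ranged from 11.76 to 12.39 at 24 h with a median of 12.16. At 9 h it ranged from 10.77 to 11.37 with a median of 11.07. The times did not overlap, and RCA was 2.06-fold higher at 24 h (adjusted p 0.00103 in limma). Its call was lost with the spread of all 69 arrays (adjusted p 1), and without 1 DMSO array its change was as low as 0.96. SBPASE, sedoheptulose-bisphosphatase, was higher by 0.88 ± 0.14 and PRK, phosphoribulokinase, by 0.64 ± 0.11 (± SE, log2).

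Genes of chlorophyll and haem synthesis shifted less. Of 9 measured members 1 was called up, 5 passed the adjusted p upward including that one, and none passed it downward, with a median change of 0.42. Over all probe sets 0.888% were called up, and 4.76% and 6.3% passed the adjusted p upward and downward. HEME1, a uroporphyrinogen decarboxylase, was called: it averaged 8.00 ± 0.35 at 24 h and 6.98 ± 0.33 at 9 h (SD, n = 6 each, adjusted p 0.00254 in limma, and 0.358 with the spread of all 69 arrays). Its close relative HEME2 was higher by 0.76 ± 0.09, the magnesium chelatase gene CHLI2 by 0.73 ± 0.17 and the methyltransferase gene CHLM by 0.61 ± 0.09 (± SE, log2). PORB, the protochlorophyllide oxidoreductase that performs the light-dependent step of the pathway, averaged 12.94 ± 0.20 at 24 h and 12.82 ± 0.24 at 9 h (SD, n = 6 each). That difference was within the spread of the arrays, with an adjusted p of 0.65.

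Of 69 measured plastid-encoded genes none was called in either direction, beside 1.21% of all probe sets, and 3 passed the adjusted p, all higher at 24 h, beside 4.76% of all probe sets: psaJ by 0.97 ± 0.16, rpl33 by 0.78 ± 0.19 and ndhA by 0.66 ± 0.19 (± SE, log2). psaJ was called without DMSO replicate 3 at 24 h, DEX replicate 2 at 24 h, DEX replicate 2 at 9 h or DEX replicate 3 at 9 h, at 1.01 to 1.03. It is a photosystem I subunit, rpl33 a ribosomal protein and ndhA a subunit of the chloroplast NADH dehydrogenase-like complex. The median change of the 69 was -0.01 and their changes ran from -1.21 to 1.62. Averaged over the 69 genes, the log2 signal at 24 h was 9.22, 9.53 and 9.63 with DEX and 10.31, 10.13 and 8.69 with DMSO, and at 9 h it lay between 9.32 and 9.86. The arrays at 24 h therefore fell on both sides of those at 9 h, and 1 DMSO array at 24 h, replicate 3, stood below the other 11. In that same array the mean of the 7 nuclear photosystem genes was 10.73, close to the 10.82 and 10.75 of its fellow replicates. Over the 12 arrays those nuclear means were 10.13 to 10.82 at 24 h and 9.10 to 9.74 at 9 h. Of 16 mitochondrion-encoded genes none was called, and 3 passed the adjusted p downward, beside 6.3% of all probe sets: cox2 by -0.88 ± 0.22, nad5 by -0.66 ± 0.18 and nad4L by -0.63 ± 0.11 (± SE, log2), with a median of -0.34 over the 16. These 3 encode subunits of respiratory complexes.

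**Figure D3:**
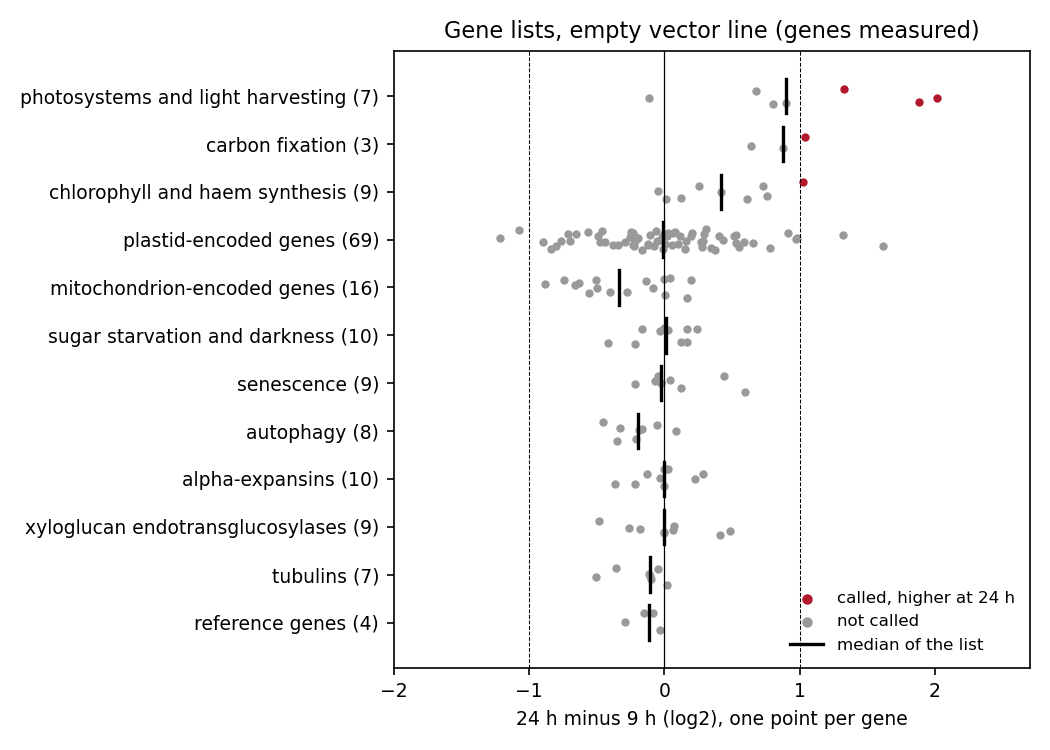
Each point is the change of one gene between 24 h and 9 h in the empty vector line (24 h minus 9 h, log2), in 12 of the gene lists with the number of genes measured in brackets. Bars mark the median of each list: 0.90 for photosystems and light harvesting, 0.88 for carbon fixation, 0.42 for chlorophyll and haem synthesis and -0.01 for plastid-encoded genes, and red points were called.

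Among genes with a symbol, bZIP58 and HYH had the largest rises without overlap between times. bZIP58, a basic leucine zipper factor, had log2 signals of 5.19, 6.34 and 4.0 with DEX and 5.23, 4.75 and 3.81 with DMSO at 24 h. At 9 h all 6 of its values lay between 2.14 and 2.22, at the floor. The difference was at least 6.41-fold, since the 9 h level is only a bound, and the adjusted p was 0.0018 in limma.

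HYH, the homologue of HY5 and like it a bZIP factor that promotes light responses in seedlings, had the same form. Its log2 signals at 24 h were 4.72, 4.68 and 2.82 with DEX and 5.95, 5.51 and 4.86 with DMSO, whereas all 6 arrays at 9 h read 2.15. HYH was at least 6.10-fold higher at 24 h (adjusted p 0.00261 in limma). The DEX arrays spread more widely than the DMSO arrays, with replicate 3 lowest in both. At 12 h all 6 arrays of the line were still at 2.15 for HYH and between 2.14 and 2.22 for bZIP58, so both genes were above the floor at 24 h only among these times.

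The remaining rises with the largest changes and no overlap between times were loci without a gene symbol in the annotation used here. AT1G21500 rose by 2.63 ± 0.23, AT2G42220 by 2.61 ± 0.17, AT5G13770 by 2.23 ± 0.26 and AT1G22690 by 1.97 ± 0.25 (± SE, log2). AT2G42220 had arrays between 9.27 and 10.28 at 24 h and between 6.92 and 7.68 at 9 h. AT2G34620 was at the floor at 9 h (2.36 to 2.48) and between 4.01 and 5.52 at 24 h, at least 5.86-fold higher. AT5G48490 was at least 4.70-fold higher: 4 of its 6 values at 9 h (3.37 to 3.83) recurred exactly in other arrays of the series, so the size is given as a lower bound. AT2G04039, AT5G57345, AT5G15950 and AT1G66130 rose by 1.67 to 1.81, AT1G66130 from the floor. All of these had adjusted p-values in limma of at most 0.00234. At 9 h 3 of 6 values of AT5G15950 and 2 of 6 of AT2G04039 recurred exactly in other arrays, so the sizes for this pair are lower bounds as well.

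The largest fall of all was that of COR27, a cold-responsive gene whose product acts in the circadian clock. Its log2 signals at 24 h lay between 2.32 and 2.92 with a median of 2.54, near the floor, and at 9 h between 5.97 and 7.70 with a median of 6.57. The arrays of the 2 times were more than 3 log2 units apart. COR27 changed by -4.05 ± 0.25 (SE), with an adjusted p of 1.75e-05 in limma, and 2 of its 6 values at 24 h recurred exactly in other arrays, so the size is a lower bound.

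GI, the clock protein that also acts in photoperiodic flowering and blue-light signalling, was among the tightest changes. Its log2 signals at 24 h were between 6.20 and 6.86 with a median of 6.64, and at 9 h between 8.45 and 8.69 with a median of 8.52. GI changed by -2.0 ± 0.11 (SE, adjusted p 1.14e-05). CCL, whose unstable transcript is under clock control, had signals at 24 h of 6.82 to 8.85 with a median of 8.12, and at 9 h of 10.43 to 11.70 with a median of 10.98. Its change was -3.15 ± 0.36 (SE, adjusted p 0.000634 in limma, and 0.0886 with the spread of all 69 arrays), with DEX arrays above DMSO arrays at 24 h in all but 1 of 9 pairs. Only 2 genes of the clock list were measured under a symbol, GI and XCT, and XCT stood at 2.73 in both times.

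PDC2, a pyruvate decarboxylase of the fermentation pathway, had log2 signals at 24 h of 5.50 to 6.02 with a median of 5.79, and at 9 h of 7.31 to 8.11 with a median of 7.84. The times did not overlap, and PDC2 was 4.04-fold lower at 24 h (adjusted p 4.22e-05 in limma). The low-oxygen list held 1 other measured gene, AT3G10040, which differed by -0.51 ± 0.35 (SE, adjusted p 0.449). A wall gene and a peptidase-like gene fell by less. PME61, a pectin methylesterase, was the only one of 4 pectin genes called, beside 0.325% called down over all probe sets. It averaged 2.36 ± 0.04 at 24 h and 3.67 ± 0.70 at 9 h (SD, n = 6 each). Its arrays overlapped between times, and it was at the floor at 24 h. Its call (adjusted p 0.0138) was lost with the spread of the 18 empty vector arrays (0.0684) and of all 69 arrays (0.109). scpl40, a serine carboxypeptidase-like gene, changed by -1.09 ± 0.10 (SE, adjusted p 0.000211).

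Loci without a symbol made up most of the other large falls. AT1G56300 had log2 signals between 4.87 and 5.49 at 24 h and between 8.61 and 9.13 at 9 h, a 12.6-fold difference with an adjusted p of 6.14e-07 in limma. AT4G30650 fell to 4.11 ± 0.41 at 24 h, against 7.09 ± 0.46 at 9 h (SD, n = 6 each). Its neighbour in the RefSeq gene order, AT4G30660, was 3.08-fold lower. AT4G33980 changed by -2.25 ± 0.09, AT4G16146 by -2.60 ± 0.29, AT2G25150 by -2.11 ± 0.40 and AT2G15880 by -1.99 ± 0.34 (± SE, log2). At 24 h 3 of 6 values of AT4G33980 and 2 of 6 of AT2G15880 recurred exactly in other arrays, so the sizes for this pair are lower bounds. AT1G11210, AT4G32340, AT2G16365 and AT1G53035 changed by between -1.98 and -1.52. Arrays of the 2 times did not overlap for any gene named in this paragraph.

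**Figure D4:**
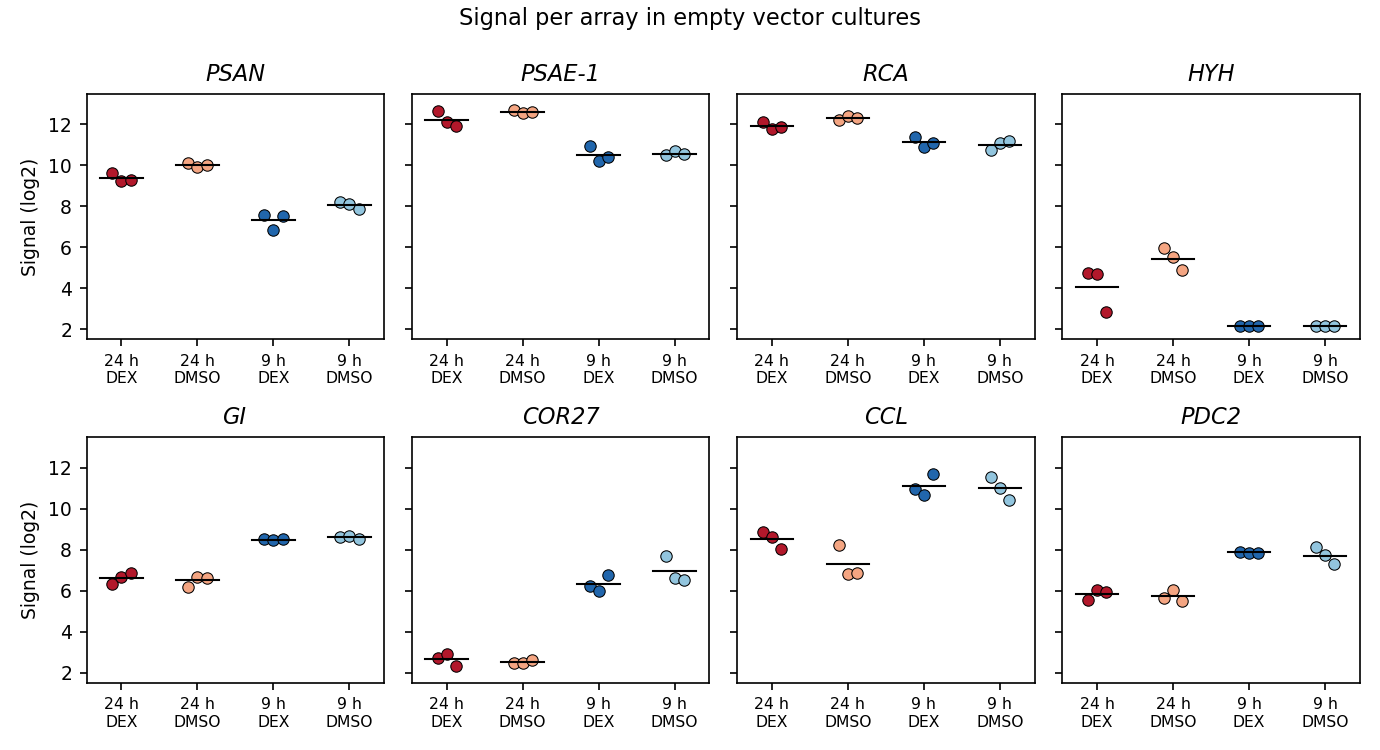
Each point is the log2 signal of 1 array, in the order 24 h with DEX, 24 h with DMSO, 9 h with DEX and 9 h with DMSO, with 3 arrays a group and a line at the group mean. PSAN, PSAE-1, RCA and HYH lie higher at 24 h, HYH being at 2.15 in all 6 arrays at 9 h, and GI, COR27, CCL and PDC2 lie lower at 24 h.

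Lists for starvation, ageing and recycling held no call, beside 1.21% of all probe sets. Of 10 genes of sugar starvation and darkness none was called, their median change was 0.01, and AT3G15450, the brightest of them, averaged 12.46 ± 0.13 at 24 h and 12.43 ± 0.24 at 9 h (SD, n = 6 each). EXO, which encodes EXORDIUM, a wall protein tied to growth, passed the adjusted p with a change of -0.42 ± 0.04. Of 9 senescence genes none was called, with YLS5 at 0.60 ± 0.15 and NOL, a chlorophyll b reductase, at 0.44 ± 0.08 passing the adjusted p. Of 8 autophagy genes none was called and the median change was -0.20, with ATG8D, a ubiquitin-like protein of autophagosome formation, passing the adjusted p at -0.45 ± 0.07 (± SE, log2).

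Calls in wall, growth and detoxification families are given beside the 1.21% called over all probe sets. None of 10 alpha-expansins, 8 beta-expansins and expansin-like genes, 9 xyloglucan endotransglucosylases, 15 GH9 endoglucanases or 7 cellulose synthases and relatives was called, and their medians lay between -0.08 and 0. Of 7 tubulin genes none was called, while TUB9 (-0.50 ± 0.06) and TUB5 (-0.36 ± 0.04) passed the adjusted p (± SE, log2). The beta-expansin list included EXLA1 at -0.53 ± 0.09 and the xyloglucan list XTH16 at -0.48 ± 0.09 and XTH32 at 0.49 ± 0.10, each past the adjusted p. Among 47 UGT glycosyltransferases 1 was called, UGT88A1 at 1.01 ± 0.17, and 5 passed the adjusted p in each direction, UGT88A1 among them, beside 0.888% called up and 4.76% and 6.3% past the adjusted p upward and downward over all probe sets. With the spread of all 69 arrays UGT88A1 had an adjusted p of 0.848. No glutathione transferase of 14 was called, and GSTU20 came nearest at 0.99 ± 0.15. It was called with quantile normalization (1.01) and with arrays centred on their medians (1.00), and without DMSO replicate 1 at 24 h, DEX replicate 2 at 24 h, DMSO replicate 2 at 9 h or DEX replicate 1 at 9 h (each at least 1.04). Of 13 genes of abscisic acid response and late embryogenesis COR27 was the 1 called. Its list also held COR47, a dehydrin, at -0.41 ± 0.07 and HVA22C at 0.51 ± 0.09.

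Markers of other cell types showed no call, beside 1.21% of all probe sets. Few were measured, and the lists of root cortex, endodermis and cap and of shoot epidermis and cuticle had no measured gene. With so few genes, no call is close to that share and says little about cell types. The 6 genes of xylem and secondary walls changed by between -0.02 and 0.03, IRX15 and AT1G66810 being near the floor at both times. Of 4 guard cell genes SPCH, MUTE and FMA, the regulators of the stomatal lineage, were at the floor at both times, and STOMAGEN differed by -0.03 ± 0.13. The root hair genes EXPA7 and EXPA18 differed by -0.21 ± 0.13 and -0.13 ± 0.12 (± SE, log2), and EXPA18 averaged 4.62 at 24 h and 4.75 at 9 h, above the floor. The lists held no measured gene that defines hypocotyl alone, so that label could not be checked. The one phloem gene measured, OPS, was lower by 0.68, with an adjusted p of 0.0385 in limma. Of the 4 genes of hypocotyl growth in the dark none passed the adjusted p, and their changes ran from -0.36 to 0.12. These arrays hold whole cultures, so fewer cells of a type and less RNA per cell cannot be told apart. Among 4 reference genes commonly used for scaling none was called, beside the same 1.21%. PEX4 passed the adjusted p (0.00626 in limma) with a change of -0.29 ± 0.05, and AT4G34270 differed by -0.03 ± 0.04 (± SE, log2).

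The changes with time were seen with and without DEX. All 202 probe sets that rose were higher and all 74 that fell were lower at 24 h in each treatment, as the joint fit selects for. The median change of the 202 was 1.31 with DEX and 1.42 with DMSO, and that of the 74 was -1.43 with DEX and -1.38 with DMSO. Each treatment was also taken as its own contrast in a single fit of all 12 arrays, which shares the spread between treatments. By that fit 174 probe sets (0.765%) were called with DEX, 123 up (0.541%) and 51 down (0.224%). With DMSO 279 (1.23%) were called, 221 up (0.972%) and 58 down (0.255%). Leaving out replicate 1 at 24 h or replicate 2 at 9 h brought the DEX count to 108 and 109, and leaving out replicate 1 at 9 h brought the DMSO count to 169. Same-number arrays of DEX cultures at 24 h and 9 h deviated together in all 3 pairs, with r of 0.142 to 0.215. With the replicate number as a block the DEX count was 154 in the fit of all 12 arrays. On the 6 DEX arrays alone, a setting chosen after seeing the data, it was 23 without that block and 0 with it in limma, where 3084 probe sets had an unadjusted p under 0.05. In the test of the difference in change between DEX and DMSO no probe set was called, 826 had an unadjusted p under 0.05, and 1 passed the adjusted p alone. AT4G16260 was one of the 5 largest rises with DEX, at 2.63 ± 0.55, against 0.76 ± 0.55 with DMSO (± SE, log2). Over both treatments it rose by 1.69 ± 0.47 with an adjusted p of 0.0478, a call lost without most single arrays, and the difference between its changes had an adjusted p of 1. AT2G25150 likewise had -2.91 with DEX and -1.31 with DMSO on that scale.

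The intervals of that difference show how closely the treatments can be compared for single genes. For PSAN the change with DEX minus the change with DMSO was 0.12, with a 95% confidence interval of -0.51 to 0.74 on the log2 scale. For GI it was 0.24 (-0.25 to 0.73) and for PSAE-1 -0.32 (-1.02 to 0.37). Wider intervals held for COR27 at 0.75 (-0.30 to 1.80), CCL at 1.1 (-0.38 to 2.58) and HYH at -1.37 (-2.88 to 0.15). With 3 arrays in each group, differences within those intervals are not excluded. The intervals are for single genes, without adjustment over probe sets.

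Cultures at 12 h lay nearer to those at 9 h than to those at 24 h in both sets. This comparison uses the same 9 h arrays as the one above and is not independent of it. At 12 h against 9 h no probe set was called, 671 had an unadjusted p under 0.05, and the smallest adjusted p in limma was 0.925. Averaged over the 202 probe sets that rose, array means were 6.20 to 6.64 at 9 h, 6.27 to 7.12 at 12 h and 7.60 to 8.28 at 24 h. Over the 74 that fell they were 6.93 to 7.32 at 9 h, 6.63 to 7.06 at 12 h and 5.45 to 5.69 at 24 h. The 12 h arrays thus overlapped those at 9 h in both sets and overlapped those at 24 h in neither. The highest of the 12 h values in the risers, 7.12, was that of DMSO replicate 3.

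Single members differed from 9 h by little at 12 h. Of the 202 that rose, 143 were higher at 12 h than at 9 h with a median of 0.07, and of the 74 that fell, 63 were lower with a median of -0.20. Both sets were chosen on the same 9 h arrays, and that choice can tilt these counts this way. GI differed by -0.48 ± 0.09, PDC2 by -0.38 ± 0.18 and COR27 by -0.25 ± 0.50 (± SE, 12 h minus 9 h, log2), each with an adjusted p of 1. PSAN differed by 0.02 ± 0.21, PSAE-1 by 0.05 ± 0.19 and RCA by 0.04 ± 0.16 on the same scale.

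**Figure D5:**
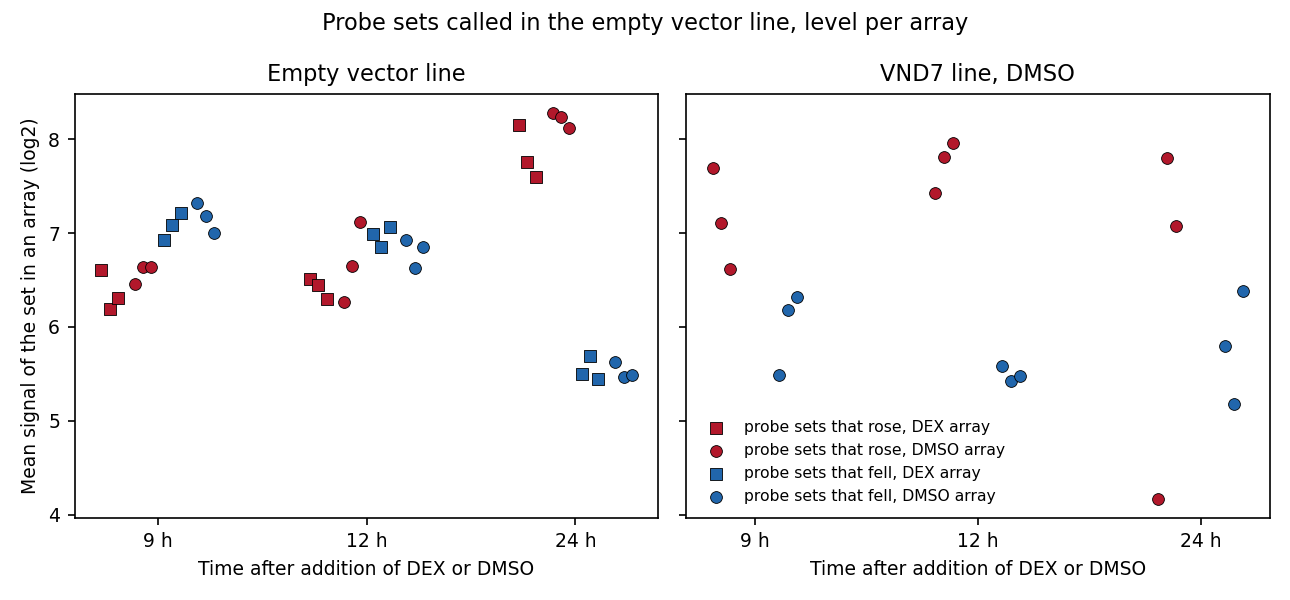
Each point is the mean log2 signal in 1 array of the 202 probe sets that rose (red) or the 74 that fell (blue) between 24 h and 9 h in the empty vector line, shown by time for that line (left; squares DEX, circles DMSO) and for the VND7 line without DEX (right). In the empty vector line the 12 h arrays lie beside those at 9 h, and in the VND7 line 1 array at 24 h lies far below its fellows, at 4.17 in the red set.

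The line carrying VND7-VP16-GR, grown without DEX, offered the same times. Among its 3 arrays at 24 h, replicate 1 stood apart: the 202 probe sets averaged 4.17 in it, against 7.80 and 7.07 in replicates 2 and 3. Replicate 2 at 1 h (4.28) and replicate 2 at 6 h (4.21) without DEX had similar means, and neither enters these comparisons. With all arrays no probe set was called between 24 h and 9 h in that line, 561 had an unadjusted p under 0.05, and 44 of the 202 were higher at 24 h (21.8%, median -0.90), beside 40.5% of all probe sets. Without replicate 1 at 24 h no probe set was called either, and 170 of the 202 were higher (84.2%, median 0.21), beside 39.4% of all probe sets. The 202 averaged 7.80 and 7.07 in replicates 2 and 3 at 24 h and 7.70, 7.11 and 6.62 at 9 h, so the times overlapped. Without DEX they averaged 7.43, 7.82 and 7.96 at 12 h and 7.45, 7.78 and 7.18 at 0 h in that line. Probe sets of an array vary together, so these shares are not counts of replicates. Of the 74 that fell, 44 were lower at 24 h with all arrays (59.5%, median -0.08), beside 41.6% of all probe sets. Without replicate 1 53 were lower (71.6%, median -0.19), beside 39.1%. At 9 h the 202 averaged 6.20 to 6.64 in the empty vector arrays and 6.62 to 7.70 in the uninduced VND7 arrays, and the 74 averaged 6.93 to 7.32 in the empty vector arrays and 5.48 to 6.32 in the uninduced VND7 arrays.

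For these leading genes the median SD within a group was lower in the empty vector line than in the uninduced VND7 line. The genes were chosen for times that did not overlap in empty vector arrays, which favours a low SD there. The VND7 groups also include the arrays at 1 h, 6 h and 24 h that stood apart. These SDs therefore do not compare the lines for genes in general. The SD of GI within a group had a median of 0.21 over 6 empty vector groups and 0.89 over 9 VND7 groups without DEX. For CCL these medians were 0.48 in the empty vector groups and 2.56 in the VND7 groups, and for PSAN 0.25 in the empty vector groups and 0.92 in the VND7 groups. They were closest for RCA among the genes checked, at 0.20 in the empty vector groups and 0.30 in the VND7 groups. The test of the difference in change between the lines without DEX, empty vector minus VND7, called 3 probe sets (0.0132%), all upward, with 818 at an unadjusted p under 0.05. They included AT1G66130 at 2.16 ± 0.16 (SE, adjusted p 0.00852 in limma) and AT1G75460 at 1.72 with an adjusted p of 0.0384, and the other has no gene name here. Over the 6 empty vector arrays at 9 h AT1G66130 averaged 2.34 and AT1G75460 2.25, both at the floor. With arrays centred on their medians AT1G66130 alone was called (adjusted p 0.00549), and AT1G75460 had an adjusted p of 0.108. For COR27 the difference was -4.11 with a 95% confidence interval of -6.32 to -1.90. For PSAN it was 3.74 with an interval of -1.26 to 8.75. Neither passed the adjusted p in limma (0.815 for both). PSAN read 2.25 in replicate 1 of the VND7 line at 24 h, the array that stood apart, against 9.50 and 8.24 in replicates 2 and 3. The size of the PSAN difference thus leans on that 1 array.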

How the data were processed

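Gene expression was measured on Affymetrix ATH1 arrays. The values used are the log2 signals per probe set that the authors deposited, and per the submitters' processing notes they were made with GCRMA, whose version is not given in the sources used here. No scaling was added. Of 22810 probe sets, 64 controls were left out. Gene names came from the platform annotation and RefSeq symbols by Entrez gene identifier (13436 of 13513 one-gene probe sets matched), and no coordinates or sequences were used. The genome build is not given in the sources used here.

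Change with time was fitted in R 4.3.3 with limma 3.58.1 on the 12 arrays, with treatment as a block and a variance prior following mean signal. P-values were two-sided and adjusted over all 22746 probe sets. The comparison of 12 h with 9 h was fitted the same way on the 12 arrays of those times. Other comparisons were contrasts of group means in fits of 12 arrays. The change in the uninduced VND7 line shared its fit, and so its spread, with the empty vector DMSO arrays. The fit was tested on simulated data. Between 31.7% and 32.1% of an array's values lay at the floor, and the number of arrays limits the precision. P-values measure the spread between samples, which may be technical.

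Genes named are the 15 largest called changes each way without overlap between times, the same among genes with symbols, list members called or given as examples, the 5 largest calls each way of other comparisons, and reference genes. The exceptions named outside it, such as members past the adjusted p alone, were chosen after their values were seen. The members, the 54 lists and the tests were chosen with earlier results of these data known. Symbol lists found 54 of 429 entries, 8 lists had no measured member, and 12 wrong matches were removed. The plastid-encoded list was matched by RefSeq chromosome and the mitochondrion-encoded list by platform symbol, both after seeing the data. Where the text gives no result for a list, it had no call. By correlation of deviations from group means, replicate numbers paired the DEX arrays at 24 h and 9 h (3 of 3 pairs over 0.1) and none of the other pairs of groups checked. The pairing comes from the data, not the labels.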

Additional observations from a re-analysis of the deposited data

Results flagged for a closer look

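AT1G66130 had the smallest adjusted p for a difference between the lines in the change with time without DEX. Its change in the empty vector line minus that of the VND7 line was 2.16 on the log2 scale, and this difference itself passed the test (adjusted p 0.00852 in limma). Its log2 signal with DMSO averaged 4.32 ± 0.18 at 24 h and 2.36 at 9 h in the empty vector line, and 2.32 ± 0.17 at 24 h and 2.52 ± 0.15 at 9 h in the VND7 line (SD, n = 3 each). The VND7 values were near the floor of 2.14 at both times, and in the VND7 line at 12 h with DMSO the gene averaged 3.59 ± 0.59.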

How the results depend on the processing

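No named gene that was called changed direction in the alternatives run, with 8742 values of named genes on the same side of the call, 45 no longer called and 20 newly called. Of 41 named called genes 25 were called under every alternative. The main count of 276 was 88 (46 up, 42 down) when the spread was taken from all 69 arrays, with 87 of the 88 among the 276. It was 2516 (1082 up, 1434 down) by adjusted p alone and 49 (36 up, 13 down) at a log2 change of at least 2. Leaving out 1 array at a time gave 225 to 320 calls. Other settings gave 261 to 304, with the replicate block at 261, of which 260 were shared. With the block within each treatment, chosen after seeing the data, it was 246. Same-number arrays had r above 0.1 in 4 of 18 pairs, 3 of them the DEX pairs of 24 h and 9 h, and 5 of 12 arrays correlated best with their own number. The DEX count was 23 on the 6 DEX arrays alone and 0 there with the replicate block, both chosen after seeing the data. AT4G16260 lost its call with the replicate block (adjusted p 0.0708). With all 69 arrays the adjusted p of PSAN was 0.868, of PSAE-1 0.345, of CCL 0.0886 and of PSBW, RCA, TROL and PSB27 1, while AT2G42220 (0.598), AT4G32340 (0.561) and AT5G57345 (0.0501) also lost the call, the changes themselves being the same by construction. RCA, HEME1, CFM3A and UGT88A1 lie near a change of 1 and lost the call without single arrays, as did AT4G16260. ndhH (adjusted p 0.019) and rpl36 (0.0362) were called when dim probe sets were left out, ndhK (0.0414) with all 69 arrays, GSTU20 with centring (0.00107) and quantile normalization (0.00319), and psaJ without single arrays. Leaving out 1 array gave 108 to 224 calls with DEX alone, 169 to 299 with DMSO alone, 0 to 1 for the difference between treatments (1 without replicate 3 at 24 h with DMSO, and 1 without replicate 1 at 24 h with DEX) and 1 to 4 for the difference between lines. That last count was 0 with the replicate block (AT1G66130 at an adjusted p of 0.081, 797 probe sets at an unadjusted p under 0.05) and 1 with arrays centred on their medians, and the cause was not tested. The lack of gene names for many called probe sets limits what the lists can show.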
